A study of Mus musculus with 14 samples.

Results

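The livers of lsPERK and wild-type (WT) mice were compared after tunicamycin, an inhibitor of N-linked glycosylation that stresses the endoplasmic reticulum (ER). The comparison rested on 8 of the 14 arrays of the series, selected by title: 4 of lsPERK liver and 4 of WT liver, both 6 h after 1 mg/kg tunicamycin. The other 6 arrays, 3 of lsPERK and 3 of WT liver given 0.3% DMSO, supplied the same genotype comparison without tunicamycin. The series' design text calls lsPERK the knock-out. The labels give neither the deleted part of the gene nor the driver of the deletion, nor sex, age or strain, and no time for the DMSO controls. Nothing in the labels says that replicates are separate animals, and the p-values cover the spread between these samples only, which may be partly technical. Signals of X- and Y-linked transcripts, given below, differed between arrays within every group, so the arrays of a group were not all from the same animal. Liver holds several cell types, and fewer cells of a type cannot be told apart from less RNA per cell.

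PERK, encoded by Eif2ak3, is a kinase of the ER membrane that is activated when unfolded proteins accumulate. It phosphorylates the initiation factor eIF2, which lowers translation of most mRNAs while favouring that of ATF4, a transcription factor that raises genes of amino acid supply, redox balance and feedback control. The other arms of the unfolded protein response run through IRE1, which splices Xbp1 mRNA, and through ATF6, which is cleaved in the Golgi and induces ER chaperones.

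Signal is given as normalized intensity per array, in the order of replicates 1 to 4, and differences are lsPERK minus WT on the log2 scale with the standard error (SE) of the fit. A gene was called at a limma adjusted p under 0.05. Of 12085 genes tested, 4269 (35.3%) were called between the tunicamycin groups, 2238 (18.5%) higher and 2031 (16.8%) lower in lsPERK liver. These shares are the background for all counts of list members below. In 18.6% of all genes every lsPERK tunicamycin array lay above every WT tunicamycin array, and in 17.7% every one lay below. Differences of at least 2-fold were found in 466 called genes in the higher direction (3.86%) and 585 in the lower (4.84%), and differences of at least 4-fold in 68 and 119. The median difference over all genes was 0.05 and the median size among called genes 0.68. The balance of directions depended on scaling: with the values as deposited 705 genes were called higher and 1957 lower, and with each array centred on its median 1371 and 2302. These settings shifted the median of all genes below 0, to −0.11 in the deposited values. The plot of mean signals shows the lower calls reaching farther from the diagonal among bright genes, with Ddit3, Trib3, Chac1 and Nupr1 at the edge.

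**Figure D1:**
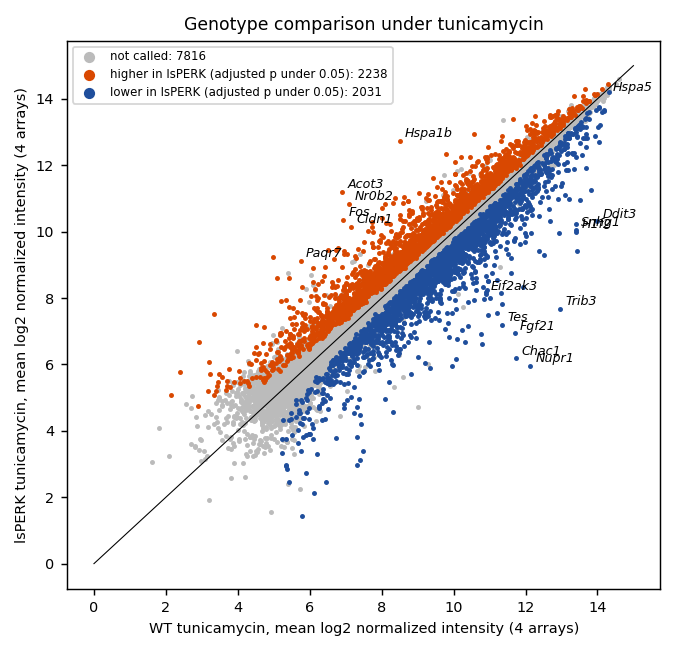
Mean log2 normalized intensity of 12085 genes in WT (x axis) and lsPERK (y axis) liver after tunicamycin, 4 arrays each. Orange points are the 2238 genes called higher in lsPERK liver, blue points the 2031 called lower and grey points those not called; the line marks equal signal, and Nupr1, Trib3 and Chac1 lie far below it while Hspa1b lies far above.

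Without tunicamycin, limma called 0 of 12085 genes (0%) between lsPERK and WT liver, with 512 at an unadjusted p under 0.05. The smallest limma adjusted p was 0.309, that of the targeted gene Eif2ak3. As 3 against 3 arrays did not call even this gene, the 0 does not show that the genotypes were alike. A test of whether the genotype difference itself was changed by tunicamycin called 2401 genes (19.9%), 1232 with a more positive difference under tunicamycin (10.2%) and 1169 with a more negative one (9.67%). The control arrays also placed the differences. Of the 585 genes at least 2-fold lower in lsPERK liver, 517 (88.4%) had both control means closer to the lsPERK than to the WT tunicamycin mean, 35 had both closer to WT and 33 were split. Of the 466 genes at least 2-fold higher, these numbers were 380 (81.5%), 51 and 35. Among the 7816 genes not called, 52.7% had both control means closer to lsPERK.

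**Figure D2:**
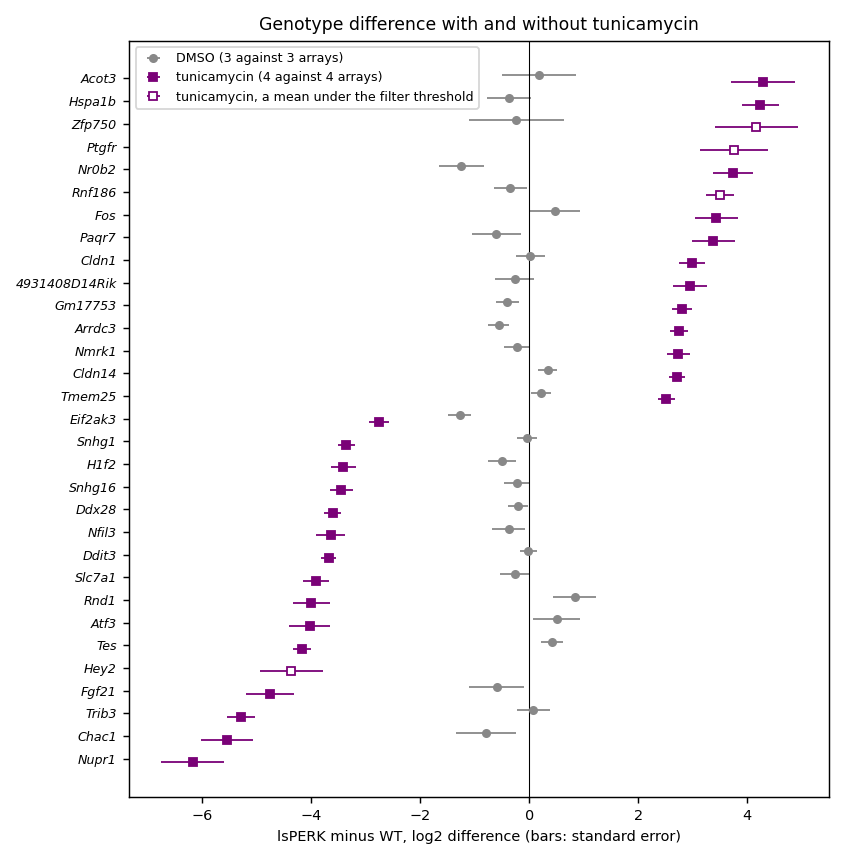
Difference between lsPERK and WT liver (log2, x axis) under DMSO (grey circles, 3 against 3 arrays) and under tunicamycin (purple squares, 4 against 4) for Eif2ak3 and the 30 genes with the most extreme confidence limits; bars are standard errors of the fit. Under tunicamycin the values run from −6.17 in Nupr1 to 4.30 in Acot3, with open squares where a tunicamycin mean lay under the filter threshold of 41.5, so that the size is not measured. DMSO values are left out where both DMSO means lay under that threshold, as in Nupr1; of the rest, Nr0b2 lies at −1.24 and Eif2ak3 at −1.27.

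The 8 tunicamycin arrays separated by genotype along their first principal component, which held 44.9% of the variance. The next component held 23.4% and separated arrays by signal of Xist, a transcript of the inactive X chromosome: 2 of 4 lsPERK arrays (replicates 1 and 2) and 1 of 4 WT arrays (replicate 2) had high Xist signal. Deposited signal of the Y-linked gene Eif2s3y was 14.1 and 6.43 on those lsPERK arrays and 3.21 on that WT array. On the other tunicamycin arrays it was 821 and 1027 in lsPERK and 786 to 1313 in WT liver. Among the controls, 2 of 3 lsPERK and 1 of 3 WT arrays had high Xist signal. Genes known to differ between the sexes moved with it and are given near the end, with genes whose difference was unlike in the classes. Array correlations across genes were 0.942 to 0.980 within the tunicamycin groups and 0.915 to 0.945 between them. For β-actin, the log2 ratio between 3′ and 5′ control probe sets, which rises as RNA degrades, was 0.660 to 1.21 on the WT and 0.592 to 0.785 on the lsPERK arrays. With this ratio as a covariate 3895 genes were called.

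Eif2ak3, the targeted gene, read 1767, 2419.7, 1725 and 1755 on the WT tunicamycin arrays and 316, 302, 239 and 275 on the lsPERK arrays. The groups did not overlap, and lsPERK liver was lower by a log2 difference of −2.75 (SE 0.18, limma adjusted p = 1.47e-07). A dimmer probe set of the gene averaged 54.3 and 25.5, the latter under the filter threshold of 41.5, and was not called. A probe set outside the deleted part would check nothing about the genotype. Control signal was 240.1 to 443 in WT and 127 to 157 in lsPERK liver, so the lsPERK signal after tunicamycin lay within or just under the WT control range. The other kinases that phosphorylate eIF2 were not called: Eif2ak2, which responds to double-stranded RNA, stood at 0.44 (limma adjusted p = 0.052), Eif2ak1, which responds to haem shortage, at 0.27, and Eif2ak4, the sensor of uncharged tRNA, at −0.18. Eif2ak2 and Eif2ak1 passed with Xist class as a covariate (limma adjusted p = 0.0352 and 0.0331), and Eif2ak2 also without WT tunicamycin replicate 4 (0.0187), lsPERK control replicate 1 (0.0453) or lsPERK control replicate 3 (0.04997). Its most variable probe set passed too (0.54, limma adjusted p = 0.0260). So did Eif2ak2 without the variance trend (limma adjusted p = 0.0369) and with the filter on the 8 tunicamycin arrays (0.0493). Ppp1r15a, which targets a phosphatase to eIF2 during stress, read 3208, 3241, 2929 and 3119.7 in WT and 426, 399, 434 and 478 in lsPERK liver. It was lower by −2.85 (SE 0.12, limma adjusted p = 3e-09), with control signal of 242 to 359.6. Eif2s2, the β subunit of eIF2, was lower by a smaller amount (−0.56), while Ppp1ca, the catalytic partner of the phosphatase, was higher (0.45).

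The transcription factors and feedback genes downstream of ATF4 were the list with the most negative median. Of 13 members tested, 11 were called lower and 0 higher, against 16.8% of all genes called lower, and their median was −1.55. Atf4 itself read 8234, 8519, 8461 and 8089 in WT and 3141, 3204, 2400.1 and 2717 in lsPERK liver, a difference of −1.55 (SE 0.16, limma adjusted p = 8.49e-06), with control signal of 2012 to 4016. Ddit3, which encodes the transcription factor CHOP, read 15150.1, 16845, 16698 and 16499 in WT and 1425, 1499, 1065 and 1140.1 in lsPERK liver. The 8 arrays did not overlap and the fold was 12.8-fold (−3.68, SE 0.14, limma adjusted p = 3e-09), while the controls lay at 191 to 273, below both. Trib3, a pseudokinase that restrains AKT and ATF4, read 7966, 7775, 8368 and 7715 against 176, 232, 258 and 163, and its lsPERK values lay close to the controls (69.9 to 179). Nupr1, a stress-induced chromatin protein, showed the largest difference of the named genes, with 3473, 7381, 4122 and 3879 in WT and 83.6, 98.0, 35.5 and 51.7 in lsPERK liver (−6.17, SE 0.58). Atf3, a repressor of the ATF/CREB family, read 11216, 13825, 9812 and 9919 against 1137, 787, 420.2 and 565 (−4.03), and Eif4ebp1, the inhibitor of cap-dependent translation, differed by −1.47. Cebpb, a bZIP partner of CHOP and ATF4, was lower by a log2 difference of −0.95. The members not called were Jdp2 (−0.31) and Batf2 (0.15).

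**Figure D3:**
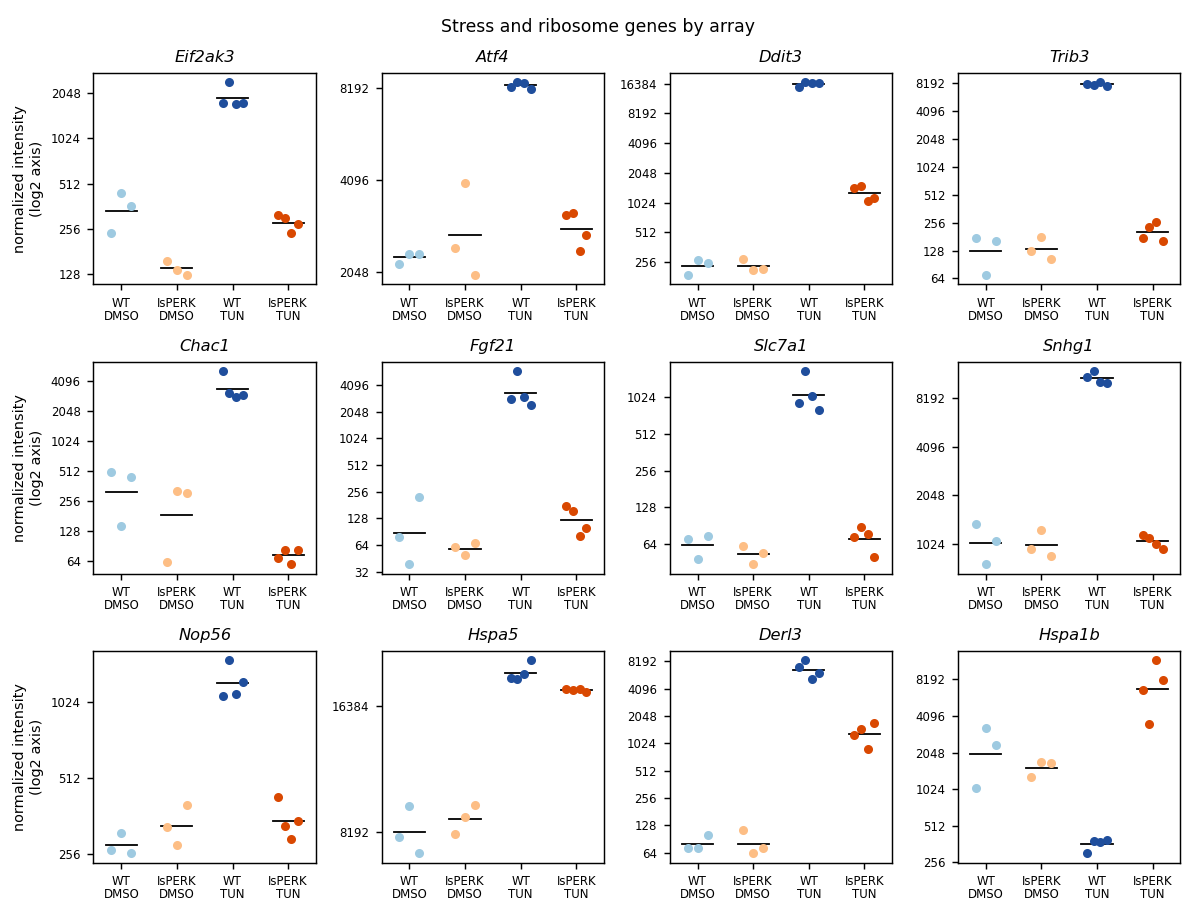
Normalized intensity (log2 axis) of 12 stress and ribosome genes on each array of WT and lsPERK liver under DMSO (3 arrays each) and tunicamycin (TUN, 4 each); points are arrays and bars geometric means. In Ddit3, Trib3, Chac1, Fgf21, Slc7a1 and Snhg1 the WT tunicamycin arrays stand above all others, Hspa5 is raised in both genotypes, and Hspa1b is lowest in WT tunicamycin.

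The sequence before the transcription start of 4 of these genes is shown because each holds the letters TGATGNAA, the core to which ATF4 and its C/EBP partners bind (CARE), on one strand. The windows are RefSeq promoter sequence of GRCm38.p6, 250 bases, printed 5′ to 3′ in the direction of the gene, with the match in capitals. Atf3 lies at chr1:191183334-191183583 on the minus strand, Nupr1 at chr7:126625471-126625720 on the minus strand, Chac1 at chr2:119350992-119351241 on the plus strand and Fgf21 at chr7:45615491-45615740 on the minus strand. A match is a description of letters, not of a bound site.
Atf3: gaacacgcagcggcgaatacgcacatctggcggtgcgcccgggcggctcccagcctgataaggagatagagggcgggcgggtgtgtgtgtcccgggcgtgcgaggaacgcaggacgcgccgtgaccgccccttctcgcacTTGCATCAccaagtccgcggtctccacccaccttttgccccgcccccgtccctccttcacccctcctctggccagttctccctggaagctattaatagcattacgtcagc
Nupr1: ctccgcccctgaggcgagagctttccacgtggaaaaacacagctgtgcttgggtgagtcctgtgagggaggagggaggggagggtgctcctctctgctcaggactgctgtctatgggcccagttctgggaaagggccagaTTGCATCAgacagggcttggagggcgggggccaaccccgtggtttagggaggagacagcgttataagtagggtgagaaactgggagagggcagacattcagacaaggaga
Chac1: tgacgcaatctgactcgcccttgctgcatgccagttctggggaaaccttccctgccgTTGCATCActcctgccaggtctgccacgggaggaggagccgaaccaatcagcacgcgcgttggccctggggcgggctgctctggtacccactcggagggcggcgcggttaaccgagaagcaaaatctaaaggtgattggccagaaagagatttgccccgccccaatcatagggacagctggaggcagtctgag
Fgf21: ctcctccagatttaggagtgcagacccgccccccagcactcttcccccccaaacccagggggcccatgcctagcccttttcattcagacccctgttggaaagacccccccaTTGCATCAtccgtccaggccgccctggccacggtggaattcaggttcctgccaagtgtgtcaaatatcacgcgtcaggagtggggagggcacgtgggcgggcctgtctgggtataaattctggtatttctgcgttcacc

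The same letters, on either strand and within 250 bases before to 50 after a start, were found for 276 of the 9754 tested genes with a RefSeq window (2.83%). Over all genes with a window, tested or not, they were found for 1219 of 27025 (4.51%). Counted by window rather than by gene, they were in 3.97% of all 32851. Among genes called lower in lsPERK liver after tunicamycin they were found in 65 of 1675 (3.88%), among those at least 2-fold lower in 32 of 473 (6.77%), and among those at least 4-fold lower in 10 of 96 (10.4%). Among genes called higher they were found in 37 of 1852 (2%), and among those at least 4-fold higher in 0 of 58. Trib3 held a match 15 bases after its start. The window of Ddit3 held none of the 4 motifs searched, which says only that these letters are not in that window. A second motif, the ER stress response element (ERSE: CCAAT and CCACG with 9 bases between them, bound by ATF6 with NF-Y), was found in 16 of the 9754 genes (0.164%) and in 9 of the 1675 called lower (0.537%). Among genes at least 2-fold lower it was found in 1 of 473 (0.211%), and among those called higher in 1 of 1852 (0.054%). UPRE (TGACGTGG) was found in 1.03% of tested genes, 1.67% of those called lower and 0.432% of those called higher. For CRE (TGACGTCA) these shares were 3.36%, 4.24% and 3.56%. CRE and UPRE share their first 6 letters, and no 8 letters match both.

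The effectors and secreted products of the response had 8 of 12 tested members lower and 1 higher, with a median of −0.77. Chac1, which degrades glutathione, read 5112, 3129, 2846 and 2951 in WT and 69.2, 83.1, 59.9 and 82.2 in lsPERK liver, with controls at 62.2 to 502, from the lsPERK range upward. The difference was −5.55 (SE 0.48, limma adjusted p = 2.01e-06). Fgf21, a hormone the liver secretes on fasting and stress, read 2872, 5821, 2968 and 2464 against 178, 157, 80.9 and 101 (−4.76), with controls at 39.4 to 221. Ero1a, the oxidase that recharges protein disulfide isomerase, differed by −1.41 and Sqstm1, the autophagy receptor p62, by −1.14. Aifm2, the member called higher, stood at 0.90.

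Genes of amino acid supply were lower in lsPERK liver. Among 15 tested genes of serine, asparagine, proline and one-carbon synthesis 8 were called lower and 2 higher (median −0.94). Asns, asparagine synthetase, read 1498, 672, 2633 and 1269 in WT and 107, 72.5, 274 and 199 in lsPERK liver, and the groups did not overlap (−3.24, SE 0.80, limma adjusted p = 0.00585). Its controls spread from 18.9 to 421. Aldh18a1, the first enzyme of proline synthesis, read 569.6, 513, 328 and 427 against 76.4, 61.4, 34.9 and 45.7 (−3.10), and Mthfd2, of mitochondrial one-carbon metabolism, differed by −2.17. Psat1, of serine synthesis, read 1301 to 2387 in WT and 63.1 to 127 in lsPERK liver. Mthfd1, the cytosolic one-carbon enzyme, was higher instead (0.96). Of 12 amino acid transporters 6 were lower and 0 higher (median −0.49). Slc7a1, a carrier of arginine and lysine, read 920.0, 1666, 1057 and 805 in WT and 73.2, 88.6, 78.0 and 50.5 in lsPERK liver, the latter within the control range of 44.1 to 75.0 or close to it (−3.91, SE 0.24). Slc38a2, a sodium-coupled carrier of small neutral amino acids, differed by −1.03. Slc7a5, a carrier of large neutral ones, was at least 3.67-fold lower, a bound because its lsPERK mean lay under the filter threshold. Without WT tunicamycin replicate 4, 1 transporter was called higher.

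Cytosolic aminoacyl-tRNA synthetases, which charge tRNAs with amino acids, had 12 of 19 members lower and 0 higher (1 without lsPERK tunicamycin replicate 3 or lsPERK control replicate 3), with a median of −0.70. Wars (tryptophan) read 1485, 1387, 1478 and 1481 in WT and 362, 421, 366 and 421 in lsPERK liver (−1.90, SE 0.13, limma adjusted p = 2.58e-07). Iars (isoleucine) differed by −1.30, Gars (glycine) by −1.08 and Rars (arginine) by −0.87. Of 16 mitochondrial synthetases 3 were lower and 2 higher, a total of 5 against the 35.3% of all genes called, with Wars2 at −0.79 and Lars2 at 1.48.

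Genes of ribosome production were lower over nearly the whole list. Ribosome biogenesis genes were called lower in 21 of 23 cases and higher in 0, with a median of −0.80. Nop56, a core protein of the box C/D particles that methylate ribosomal RNA, read 1084, 1496, 1097 and 1231 in WT and 430.3, 332, 294 and 346 in lsPERK liver, and the controls lay at 259 to 402. Its difference was −1.81 (SE 0.15, limma adjusted p = 1.48e-06). Gnl3, the nucleolar GTPase nucleostemin, stood at −1.50, Tsr1, a factor of small subunit maturation, at −1.52, and Utp4, of the small subunit processome, at −1.43. Fbl (−0.21) and Bop1 (0.03) were not called. The ribosomal proteins themselves differed little: 4 of 19 were lower and 0 higher, with a median of −0.05, and Rpl12 (−1.30) was the member with the largest difference. The 4 became 2 without WT tunicamycin replicate 2, 3 or 4 or lsPERK tunicamycin replicate 2, 3 or 4 and 1 in the values as deposited, and without WT tunicamycin replicate 4 there was also 1 called higher. Of 19 translation initiation factors 10 were lower and 0 higher (median −0.35), among them Eif1a (−1.33), Eif3a (−1.14) and Eif5 (−0.74).

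Host genes of small nucleolar RNAs, whose introns carry the guides for modifying ribosomal RNA, were also low. Snhg1 read 11052, 11959, 10225 and 10114 in WT and 1163, 1112, 1022 and 949 in lsPERK liver, the latter within the control range of 769 to 1366 (−3.35, SE 0.16, limma adjusted p = 7.96e-09). Snhg16 differed by −3.45. After these values had been seen, all genes named Snhg with a number, Gas5 and Zfas1 were collected: of 15 tested, 12 were lower and 0 higher, with a median of −1.46 under tunicamycin and −0.13 under DMSO. Snhg12 (−3.47), Zfas1 (−2.99) and Snhg5 (−2.89) were further members with large differences, and Gas5 stood at −1.46.

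Further genes among the 15 with the most extreme lower limits have other roles. Tes, which encodes the focal adhesion protein testin, read 2422, 3156, 2494 and 2479 in WT and 137, 129, 141 and 180.0 in lsPERK liver, and the controls lay at 46.2 to 93.9 (−4.17, SE 0.17). Ddx28, a helicase of the mitochondrial ribosome, read 4547, 4733, 3014 and 3496 against 346, 348, 269.7 and 319 (−3.60). Rnd1 differed by −4.00, and H1f2, a linker histone, by −3.41. Hey2, a transcriptional repressor of the Notch pathway, was at least 3.87-fold lower, since its lsPERK mean fell under the filter threshold of 41.5.

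The ER-resident lists differed less than the ATF4 arm. Hspa5, the chaperone BiP, read 19134, 19049, 19599 and 21087 in WT and 17989, 17949, 18013 and 17769.6 in lsPERK liver and was not called (−0.14, SE 0.07, limma adjusted p = 0.179), although every WT array lay above every lsPERK array. Both groups lay far above the controls (7308 to 9503) and near the brightest signals of the arrays, and the effect of that position on the difference was not tested. The call depended on the setting: it passed with only the 8 tunicamycin arrays in the fit (−0.14, limma adjusted p = 0.0341) and with the mean of its probe sets (−0.36, 0.00374), of which the dimmest stood at −0.80. Of 24 ER chaperones 11 were lower and 2 higher, with a median of −0.31. Hsp90b1, the chaperone GRP94, read 17989, 17256, 15947 and 15771 against 14376, 13466, 13078 and 13439 (−0.30, SE 0.09, limma adjusted p = 0.014), a call that ended with the values as deposited (0.156) and with median centring (0.252). Its other kept probe set stood at −0.62 (adjusted p = 0.000611 over probe sets). Sdf2l1, of the BiP complex, differed by −1.60, Creld2 by −0.87, and Dnajb11, a co-chaperone of BiP, by −0.73. Among 15 disulfide isomerases and oxidases 7 were lower, against 16.8% of all genes, and 3 higher, near the 18.5% of all genes. Pdia4 stood at −1.30 and Erp44 at −0.69, the latter uncalled in its most variable probe set (−0.22).

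The sensors of the other arms were lower by moderate amounts: of 11 tested sensors and ATF6 family members 6 were lower and 0 higher (median −0.37). The 6 became 2 without WT tunicamycin replicate 2 and 3 without lsPERK tunicamycin replicate 1, 2, 3 or 4. Ern1, which encodes IRE1, read 3824, 4597, 3716 and 4241 in WT and 2167, 2483, 2634 and 2251 in lsPERK liver (−0.78, SE 0.12, limma adjusted p = 0.000139). Xbp1 differed by −0.53; the probe sets count the mRNA as a whole and do not measure splicing. Atf6 stood at −0.43 (SE 0.16) with a limma adjusted p of 0.0457, just inside the threshold, in its brightest probe set. Its other kept probe sets stood at −1.40 and −1.27 (adjusted p = 2.69e-05 and 7.63e-06 over probe sets) and the mean of them all at −1.03 (7.77e-06). The call of the brightest set ended when any of the WT tunicamycin replicates 1, 2 or 4 (adjusted p = 0.0716, 0.130 and 0.0647), the lsPERK tunicamycin replicates 1 to 4 (0.0800, 0.0602, 0.0952 and 0.0944), the WT control replicates 1 to 3 (0.0537, 0.0561 and 0.0564) or lsPERK control replicate 3 (0.0540) was left out. The Ern1 call ended with the mean of its probe sets (−0.48, adjusted p = 0.0520).

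The promoters of Hspa5 (chr2:34771840-34772089 on the plus strand) and Hsp90b1 (chr10:86705445-86705694 on the minus strand) are shown, in the same form as above, because both genes hold an ERSE match and lie in the arm that ATF6 serves. Capitals mark the match, of which Hsp90b1 has 2 on opposite strands.
Hspa5: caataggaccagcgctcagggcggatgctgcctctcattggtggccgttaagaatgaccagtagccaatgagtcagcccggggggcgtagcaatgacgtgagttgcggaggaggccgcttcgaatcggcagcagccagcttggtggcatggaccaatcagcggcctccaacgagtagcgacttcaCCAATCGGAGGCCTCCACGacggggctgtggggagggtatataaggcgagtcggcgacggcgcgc
Hsp90b1: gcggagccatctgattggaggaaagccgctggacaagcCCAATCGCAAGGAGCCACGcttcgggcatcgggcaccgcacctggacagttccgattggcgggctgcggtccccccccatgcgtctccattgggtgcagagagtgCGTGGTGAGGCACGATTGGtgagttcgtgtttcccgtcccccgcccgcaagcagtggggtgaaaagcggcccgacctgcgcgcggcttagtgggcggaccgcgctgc

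Derl3, Dnajc3 and Creld2 of the ER lists held an ERSE match too. Derl3 differed by −2.35 and Creld2 by −0.87. Dnajc3, a co-chaperone of BiP, stood at −0.43 in its brightest probe set, at −0.76 to −1.16 in the 4 others, all called, and at −0.87 in the mean of them all (limma adjusted p = 0.000107). The call of its brightest set (limma adjusted p = 0.0359) ended without WT tunicamycin replicate 1 or 2 (0.0933 and 0.106) and without lsPERK tunicamycin replicate 2, 3 or 4 (0.0520, 0.0908 and 0.0852).

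Genes of ER-associated degradation, which extracts misfolded proteins for the proteasome, had 14 of 22 members lower and 2 higher, with a median of −0.54. Derl3, a channel subunit, read 7016, 8389, 5302 and 6085 in WT and 1259.6, 1462, 889.8 and 1695 in lsPERK liver (−2.35, SE 0.23, limma adjusted p = 4.55e-06), and both groups lay above the controls of 63.4 to 114. Sel1l, the scaffold of the HRD1 ligase, differed by −1.27, Nploc4, a cofactor of the p97 ATPase, by −0.88 and Edem3, a mannosidase, by −0.73. Herpud1 stood at −0.52. Genes of transport from ER to Golgi were lower in 9 of 34 cases and higher in 3, against 16.8% and 18.5% of all genes. Sec23a of the COPII coat stood at −0.92 and Sar1b at 0.50. N-glycosylation, the step that tunicamycin blocks, had 7 of 30 members lower and 7 higher, near the background of 16.8% and 18.5%, and the 7 higher became 0 in the values as deposited and 1 with median centring; Gfpt1 (−1.26), Gnpnat1 (−0.98) and Uap1 (−0.57), which make the UDP-N-acetylglucosamine precursor, were all lower. Translocon and signal peptidase genes had 3 of 20 lower, near the 16.8% of all genes, and 0 higher, against 18.5%, with a median of −0.05. The 3 became 1 without WT tunicamycin replicate 4 or lsPERK tunicamycin replicate 1 or 2, in the values as deposited and with median centring. Proteasome subunits had 3 of 31 lower and 5 higher, against 16.8% and 18.5% of all genes. The 5 became 3 without lsPERK tunicamycin replicate 2 or 4 and 0 in the values as deposited. Of 15 reported targets of IRE1-dependent mRNA decay, 0 were lower, against 16.8% of all genes, and 3 higher, near the 18.5% of all genes. The 3 were Ces1d (1.15), Ergic3 (0.67) and Cyp2e1 (0.16). Without lsPERK tunicamycin replicate 3 the 3 became 5. Cyp2e1 was not called in the values as deposited (limma adjusted p = 0.189) and lost its call without WT tunicamycin replicates 1, 2 or 3 or lsPERK tunicamycin replicates 1, 2 or 4 (limma adjusted p from 0.0556 to 0.101).

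**Figure D4:**
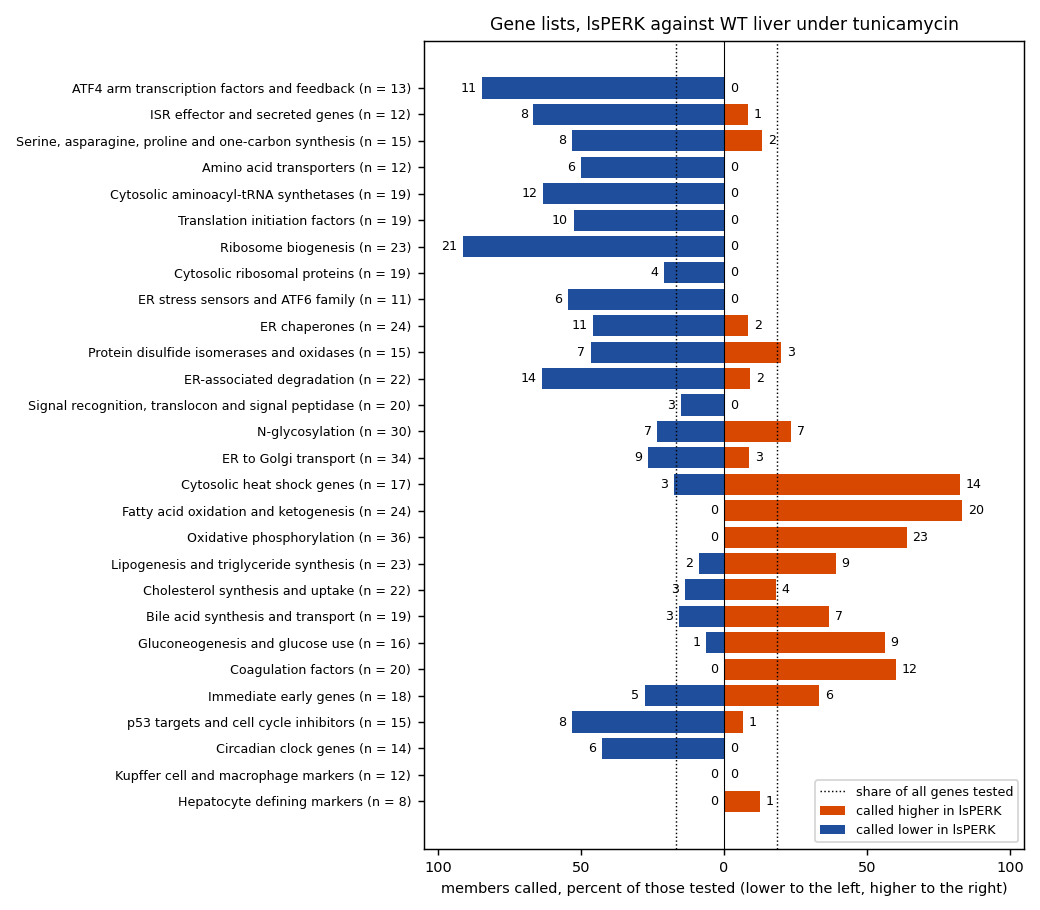
Share of tested members called lower (blue, to the left) and higher (orange, to the right) in lsPERK liver against WT after tunicamycin, for 28 gene lists; the number beside each bar is the count, and dotted lines mark the shares of all genes called lower (16.8%) and higher (18.5%). Ribosome biogenesis (21 of 23 lower) and the ATF4 arm (11 of 13) reach farthest to the left, and fatty acid oxidation (20 of 24 higher) and cytosolic heat shock genes (14 of 17) farthest to the right.

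Cytosolic heat shock genes went the other way. Of 17 tested, 14 were called higher in lsPERK liver and 3 lower, against 18.5% and 16.8% of all genes, with a median of 0.73. Hspa1b, an inducible HSP70, read 306, 382, 378 and 389 in WT and 6658, 3502, 11747 and 8078 in lsPERK liver, and the groups stood far apart (4.24, SE 0.35, limma adjusted p = 1.2e-06). The WT values lay below the controls of 1048 to 3248 and the lsPERK values above them. Hspa1a is a near-identical copy, and signal of this pair may not be separable. Dnajb4, a cytosolic co-chaperone, differed by 1.45, Hsp90aa1, the inducible HSP90, by 1.09 and Dnaja1 by 0.73. The members called lower were Hspb8 (−0.84), Bag3 (−0.61) and Dnaja2 (−0.41). Another probe set of Hspb8 and of Dnaja2 stood at 0.69 and 0.58, uncalled, and the means of their probe sets at −0.33 and −0.03 were not called either. Bag3 lost its call without WT tunicamycin replicate 1 or 2 (limma adjusted p = 0.0582 and 0.0577) or lsPERK tunicamycin replicate 2 or 4 (0.0528 and 0.0561).

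Genes of fatty acid oxidation and ketogenesis were higher in lsPERK liver in 20 of 24 cases and lower in 0, with a median of 0.52. Ppara, the nuclear receptor that drives them, read 933, 865, 1341 and 1706 in WT and 2565, 2321, 3958 and 2845 in lsPERK liver, against controls of 3466 to 5870.2 (1.30, SE 0.22, limma adjusted p = 0.000497). Its coactivator Ppargc1a read 30.3, 54.2, 42.6 and 38.7 against 356, 301, 171 and 192 and was at least 5.45-fold higher. Cpt2, which regenerates acyl-CoA inside mitochondria, differed by 1.38, Bdh1, of ketone body synthesis, by 1.01, and Hadhb, of the trifunctional protein, by 0.64. Acot3, a peroxisomal acyl-CoA thioesterase, read 73.3, 362, 45.0 and 172 in WT and 2018, 2664, 2544 and 2244 in lsPERK liver (4.30, SE 0.59), with controls at 1655 to 6755; it has a close paralogue, Acot4, and also stands in the list of female-biased genes. Oxidative phosphorylation subunits were higher in 23 of 36 cases and lower in 0, by small amounts (median 0.26), with Ndufb3 of complex I at 0.82 and Sdhc of complex II at 0.56. These small differences depended on scaling: in the values as deposited, 6 of the 36 and 12 of the 24 were called higher, with medians of 0.21 and 0.46, while the median over all genes moved from 0.05 to −0.11.

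Lipid synthesis genes were mixed. Of 23 genes of lipogenesis and triglyceride synthesis 9 were higher and 2 lower. Fasn, fatty acid synthase, read 1192, 1075, 948 and 985 in WT and 5109, 4508, 4658 and 3536 in lsPERK liver (2.08, SE 0.28, limma adjusted p = 7.01e-05), and Gpam, which starts glycerolipid synthesis, differed by 1.30. Lpin1 (−2.25) and Dgat2 (−0.84), of its later steps, were lower. Srebf1, a regulator of lipogenesis, was not called (0.54, adjusted p = 0.143). Among 22 cholesterol genes 3 were lower and 4 higher, near the 16.8% and 18.5% of all genes. The direction differed between members: Mvd (−2.41) and Fdps (−1.34) were lower and Dhcr7 (1.79) and Scap (0.76) higher. These counts moved with Xist class: the Xist-low arrays gave 8 lower and 3 higher (median −0.23) and the Xist-high arrays 1 and 3 (median 0.47), with Fdps at −1.91 and, uncalled, at −0.29 (limma adjusted p = 0.608). Of 20 lipoprotein and lipid droplet genes 5 were lower and 4 higher, against 16.8% and 18.5% of all genes. Cidec, a droplet protein, was at least 3.79-fold lower, and Mttp, which loads apolipoprotein B, stood at 0.98. The 5 became 2 without WT tunicamycin replicate 1 and 3 without WT tunicamycin replicate 4 or lsPERK tunicamycin replicate 1 or 3.

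Bile acid genes had 7 of 19 members higher, against 18.5% of all genes, and 3 lower, near the 16.8% of all genes. Nr0b2, the repressor SHP that is induced by the bile acid receptor FXR, read 179, 59.1, 241 and 137 in WT and 1794, 1667, 1806 and 2050.3 in lsPERK liver (3.74, SE 0.36, limma adjusted p = 4.37e-06). The controls, 375 to 1787, lay above all 4 WT values. Nr1h4, which encodes FXR, was lower (−0.89), and Abcg5, a sterol exporter, and Slc10a1, the bile salt importer, were higher (1.63 and 0.85). Cyp7a1, which starts the conversion of cholesterol to bile acids, read 1148, 3584, 1523 and 1834 against 1481, 211, 917 and 776. It was called lower (−1.42, SE 0.48, limma adjusted p = 0.0317) although the groups overlapped, and the call ended without WT tunicamycin replicate 2 or 4 (−1.11 and −1.42, adjusted p = 0.0933 and 0.0593), without lsPERK tunicamycin replicate 2 or 4 (−0.86 and −1.48, 0.0676 and 0.0514) with robust moderation of the variances (0.0590), with only the 8 tunicamycin arrays (0.0729) and with the replicate number as a block (0.0551).

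**Figure D5:**
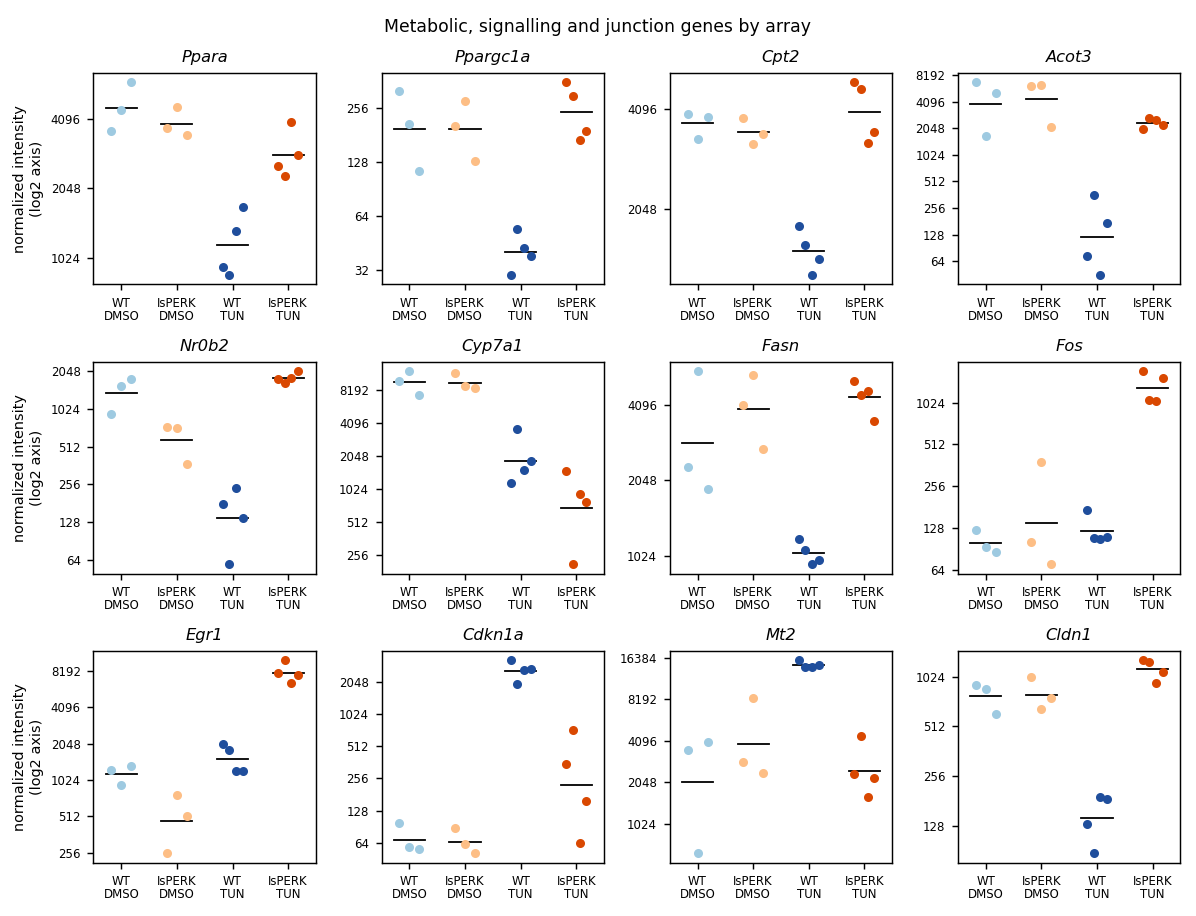
Normalized intensity (log2 axis) of 12 metabolic, signalling and junction genes on each array of WT and lsPERK liver under DMSO (3 arrays each) and tunicamycin (TUN, 4 each); points are arrays and bars geometric means. In Ppara, Cpt2, Acot3, Nr0b2 and Cldn1 the WT tunicamycin arrays are the lowest group, in Cdkn1a and Mt2 they are the highest, and in Cyp7a1 the 2 tunicamycin groups overlap below the controls.

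Glucose genes were higher in 9 of 16 cases and lower in 1 (median 0.47), with G6pc, glucose-6-phosphatase, at 0.83, Pygl, liver glycogen phosphorylase, at 0.71 and the glucose transporter Slc2a2 at 0.35. Coagulation factors were higher in 12 of 20 cases and lower in 0 (median 0.23), with F7 at 0.81 and Serpind1 at 0.76. Of 14 urea cycle and amino acid breakdown genes 6 were higher and 0 lower, by at most 0.45. In the values as deposited these counts were 4, 6 and 0 higher. Cytochrome P450 genes had 4 of 20 members higher, near the background, and 1 lower, the latter Cyp2b10 (−3.16). The 4 became 0 in the values as deposited and with median centring, 1 without lsPERK tunicamycin replicate 1, and 2 without WT tunicamycin replicate 1 or 2 or lsPERK tunicamycin replicate 3 or 4. Among 18 hepatocyte transcription factors 7 were higher and 4 lower (median −0.01), against 18.5% and 16.8% of all genes. Foxa2 stood at 1.39 and Nr1i3, which encodes the receptor CAR, at 0.97. Cebpa was not called (−0.10, limma adjusted p = 0.663). The 4 became 2 without WT tunicamycin replicate 1 or 4 or lsPERK tunicamycin replicate 1, 2 or 4, and the lower glucose gene lost its call without lsPERK tunicamycin replicate 3. Without lsPERK control replicate 2 or 3, 1 urea cycle gene was called lower.

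Immediate early genes, which respond within minutes to growth factor and stress signals, divided into both directions. Of 18 tested, 6 were higher and 5 lower, against 18.5% and 16.8% of all genes. Fos, a subunit of AP-1, read 172, 108, 107 and 110.0 in WT and 1717, 1072, 1054 and 1529 in lsPERK liver (3.43, SE 0.40, limma adjusted p = 1.98e-05), and Egr1 read 2043, 1808, 1212 and 1218 against 7871, 9972, 6494 and 7627 (2.37). Jund, another AP-1 subunit, was lower (−1.17), as was Myc, which read 1402 to 2479 in WT and 94.8 to 216 in lsPERK liver. Dusp6, which dephosphorylates ERK, was higher (2.57) and Dusp8 lower (−1.77). Of 14 chemokine and inflammatory genes 4 were higher and 0 lower, against 18.5% and 16.8% of all genes. Cxcl1, a chemokine that recruits neutrophils, stood at 2.69 and Nfkbia, the NF-κB inhibitor, at 0.54. The 4 became 2 without lsPERK tunicamycin replicate 2.

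Of 15 p53 targets and cell cycle inhibitors 8 were lower and 1 higher (median −0.63). Cdkn1a, which encodes the inhibitor p21, read 3275, 1957, 2682 and 2701 in WT and 350.2, 723, 63.1 and 158 in lsPERK liver (−3.54, SE 0.54, limma adjusted p = 0.000182), and Gadd45a, a stress-induced growth arrest gene, read 5832, 6348, 5432 and 5836 against 758, 477, 703 and 616 (−3.22). Gadd45b, its paralogue, was the member called higher (2.33); without lsPERK tunicamycin replicate 1 or 2 it stood at 1.34 in both cases, uncalled (limma adjusted p = 0.0533 and 0.0534). Of 20 cell death genes 6 were higher and 2 lower, against 18.5% and 16.8% of all genes. The initiator caspase Casp9 stood at 1.11 and the BH3-only gene Bcl2l11 at 1.50. The 6 became 2 in the values as deposited, and the 2 lower became 1 without WT tunicamycin replicate 1 or 4 or lsPERK tunicamycin replicate 3. Clock genes were lower in 6 of 14 cases and higher in 0 (median −0.41), or 1 without lsPERK control replicate 1. Nfil3, a repressor of D-box genes, read 2909, 1774, 2409.5 and 2418 in WT and 233, 195, 166 and 165 in lsPERK liver (−3.64), and Per1 and Ciart differed by −1.74 and −1.71. The labels give no hour of day at which livers were collected.

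Metal handling genes had 5 of 11 members lower and 4 higher. Mt2, a metallothionein, read 15689.6, 13988, 14013 and 14544 in WT and 2338, 4425, 1611 and 2186 in lsPERK liver (−2.57, SE 0.53, limma adjusted p = 0.00171), whereas Tfrc, the transferrin receptor, and Slc30a10, a manganese exporter, were higher (2.25 and 2.23). Of 17 NRF2 antioxidant genes 3 were lower and 3 higher, near the 16.8% and 18.5% of all genes. Among them, Hmox1, haem oxygenase 1, stood at −2.24 and Osgin1 at 1.71. Of 22 autophagy genes 5 were higher and 4 lower, near the 18.5% and 16.8% of all genes, with Ulk1 at 1.40 and Gabarapl1 at −0.80. The 5 became 3 without WT tunicamycin replicate 2 or lsPERK tunicamycin replicate 3, and 1 in the values as deposited.

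Among the 15 genes with the most extreme higher limits were 2 claudins, the membrane proteins that seal tight junctions. Cldn1 read 131, 87.9, 190.4 and 187 in WT and 1286, 1253, 934 and 1096 in lsPERK liver, and the controls, 610.4 to 1025, lay near the lsPERK values (2.99, SE 0.24, limma adjusted p = 7.98e-07). Cldn14 read 96.0, 90.0, 144 and 101 against 761, 719.6, 624 and 669 (2.71), and here the lsPERK values lay above the controls of 189 to 288. The claudins were then collected by name, after these values had been seen: of 10 tested, 4 were higher and 0 lower, the other two being Cldn2 (2.63) and Cldn3 (0.72). Ptgfr, the prostaglandin F receptor, read 2.59, 17.0, 18.7 and 3.91 in WT and 135, 109.8, 63.4 and 117 in lsPERK liver. It was at least 2.47-fold higher, with controls of 7.99 to 20.5. The other 10 arrays lay under the filter threshold, so Ptgfr passed the filter only through the 4 lsPERK tunicamycin arrays. That these 4 stood above the rest is therefore no separate result. Rnf186, a ubiquitin ligase, was at least 9.35-fold higher and Zfp750, a zinc finger transcription factor, at least 4.41-fold higher, both from WT means under the filter threshold. Paqr7, a membrane progesterone receptor, differed by 3.38, Arrdc3, an arrestin-like adaptor, by 2.75 and Nmrk1, a nicotinamide riboside kinase, by 2.74. Tmem25 (2.52), Gm17753 (2.81) and 4931408D14Rik (2.95) completed the 15.

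Markers of cell types were checked against the tissue label. The summed signal of 8 tested hepatocyte markers was 136262 to 138533 on the WT and 136261 to 140633 on the lsPERK tunicamycin arrays, and 1 of 8 was called higher (Apob, 0.14). Members such as Apoa1 and Alb lay among the brightest signals. Quantile normalization gives the brightest ranks the same values on every array, so near-equal sums say little about hepatocyte content. Alb, albumin, differed by −0.08 (adjusted p = 0.482). Zonal genes of hepatocytes were checked too: of 9 periportal genes 4 were higher and 0 lower, with the cadherin Cdh1 at 1.92 and Hal, histidine ammonia-lyase, at 1.85. Summed signal of the 9 was 49029 to 60339 on the WT and 63232 to 68964 on the lsPERK arrays, without overlap. Such a lack of overlap in this direction was found in 18.6% of all genes. Bright members such as Arg1 (means of 13824.5 and 15753) weigh heavily in the sum. Of 10 pericentral genes 3 were higher and 1 lower, with Lect2 at 1.07, and sums of 62675 to 68451 against 68224 to 75111. Their part in the other results was not tested. The 1 lower pericentral gene lost its call without WT tunicamycin replicate 1 or 2 or lsPERK tunicamycin replicate 1, 2 or 4, and 1 periportal gene was called lower without lsPERK control replicate 2 or 3. Of 2 erythroid markers tested, Klf1 was higher (0.58), a call that ended without WT tunicamycin replicate 1 or 2 or lsPERK tunicamycin replicate 1, 3 or 4 and in the values as deposited. Alas2 was not called (limma adjusted p = 0.13) but passed as lower without WT tunicamycin replicate 2 (−2.95, 0.0149), with array weights (−2.56, 0.0146) and in the Xist-low arrays (−2.38, 0.0182). Of 12 Kupffer cell, 5 neutrophil, 10 lymphocyte and 4 cholangiocyte markers 0 were called by limma, where 35.3% of all genes were. Single markers were called without WT tunicamycin replicate 2 (1 lymphocyte) and without lsPERK control replicate 3 (1 cholangiocyte). The 0 does not show equal cell content, because several of these markers were measured with little precision. The SE over probe sets was 0.31 in Adgre1 and 0.97 in Cd3d, against a median of 0.17 over all genes. Ccr2 averaged 33.3 in WT and 46.5 in lsPERK liver, near the filter threshold of 41.5. All 12 Kupffer cell differences were positive (0.02 to 0.47, median 0.22), but with Xist class as a covariate their median was −0.04. Of 12 endothelial markers 1 was called higher (Eng, 0.50), and of 11 stellate cell markers 2 (Reln, 0.57, and Acta2, 0.75), with summed stellate signal of 9249 to 13203 on the WT and 11990.0 to 14641 on the lsPERK arrays. The stellate list had a median of 0.37, and its 2 higher members became 5 without WT tunicamycin replicate 2 and 1 without WT tunicamycin replicate 1, 3 or 4 or lsPERK tunicamycin replicate 2 or 3. Without WT tunicamycin replicate 2, 2 endothelial markers were called. Summed Kupffer cell signal was 5759 to 18324 on the WT and 9373 to 14439 on the lsPERK arrays, so the groups overlapped. With the values as deposited Apob, Eng, Reln and Acta2 were not called (limma adjusted p = 0.170, 0.532, 0.177 and 0.259). Leaving out single arrays also ended the calls of Apob (WT tunicamycin replicate 4, 0.0556, and lsPERK tunicamycin replicate 4, 0.0512), Eng (WT replicates 1, 3 and 4 and lsPERK replicates 1, 2 and 4, 0.0570 to 0.102) and Acta2 (WT replicates 1, 3 and 4 and lsPERK replicates 2 and 3, 0.0562 to 0.112). The part of non-hepatocyte cells in the other results was not tested.

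Genes that differ between the sexes in liver moved with Xist class. The 10 female-biased genes had a median difference of 1.60 and the 10 male-biased genes one of −0.71, and with Xist class as a covariate these became 0.02 and 0.21. Under DMSO, without the covariate, the medians were 0.76 and −1.22. The summed female-biased signal ran from 917 to 42135 on the WT arrays and from 3890.0 to 44510.3 on the lsPERK arrays. Acot3 was called without and with the covariate (4.30 and 4.02), as were Nupr1 (−6.17 and −6.32), Ddit3 (−3.68 and −3.70) and Hspa1b (4.24 and 4.40). With the covariate the ATF4 arm had 11 of 13 members lower, ribosome biogenesis 21 of 23, and fatty acid oxidation 21 of 24 higher. The classes were also fitted alone; the Xist-high fit has 1 WT and 2 lsPERK tunicamycin arrays, and the lone array is assumed to vary like the other groups. There 22 of the named genes lost their call, among them Ppara (0.86), Mt2 (−2.08), Myc (−3.98), Bcl2l11 (1.47), Cebpb (−0.85) and Fdps. Cdkn1a stood at −4.90 in the Xist-low and −1.94 in the Xist-high arrays, and Acot3 at 4.90 and 2.65, called in both; the difference between classes was not tested.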

How the data were processed

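RNA of mouse liver was hybridised to 14 one-colour oligonucleotide arrays. The authors deposited 1 linear intensity per probe set, made with MAS5 and GCOS per the submitters' processing notes, whose versions and scaling target the sources used here do not give. Arrays carry no read depth, and their number limits the precision.

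Log2 intensities were quantile normalized. Of 45101 probe sets 34945 had 1 gene in the platform annotation, 932 several and 9160 none. Those above the pooled median (log2 5.37) on at least 3 arrays were kept, each gene by its brightest. A model of 4 group means over all 14 arrays was fitted in R 4.3.3 using limma 3.58.1 (eBayes with trend, 10 residual degrees of freedom, two-sided, Benjamini-Hochberg over 12085 genes). It is the source of each adjusted p unless stated otherwise. Values over probe sets came from the same model fitted to the 21808 kept probe sets of 1 gene. Values under alternatives came from refits, each adjusted over its own genes. Where a named gene's mean in 1 tunicamycin group lay under the filter threshold (41.5), arrays under it were raised to it and the fold is "at least". The procedure was tested on simulated data. Motifs were searched on both strands of RefSeq windows (GRCm38.p6). Alternatives covered the filter, scaling, low values, variance model, probe set, covariates, Xist class, replicate block and each array left out.

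Members, gene lists and tests were chosen with earlier results of these data known, and lists share members. Named are Eif2ak3, the 15 called genes in each direction whose 95% confidence limits lie farthest from 0, up to 4 members of each list by p, and a fixed set of stress and liver genes. Chosen after their values were seen were Aifm2, Bag3, Batf2, Bop1, Cldn2, Cldn3, Dnaja2, Fbl, Gadd45b, Gas5, Hspa1a, Hspb8, Jdp2, Myc, Psat1, Snhg12, Snhg5 and Zfas1.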

Additional observations from a re-analysis of the deposited data

Results flagged for a closer look

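The genotype difference depended on treatment in many genes. For 2401 genes limma called a lsPERK minus WT difference that was not equal under tunicamycin and DMSO.

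Among 4 tunicamycin arrays of a genotype, a single array lay far from the other 3 in 21 of 334 sets of values tested by Dixon's criterion, which by chance marks about 1 in 20. On WT tunicamycin replicate 1 the signals that stood apart were 7981 in Cebpb, 5112 in Chac1, 719 in Dusp8, 172 in Fos and 306 in Hspa1b. On WT tunicamycin replicate 2 the signals that stood apart were 146 in Aifm2, 157 in Alas2, 9206 in Cyp2b10, 2419.7 in Eif2ak3, 3643 in Eif4ebp1, 1002 in Eng, 1989.9 in Rnd1, 3156 in Tes and 1387 in Wars. On WT tunicamycin replicate 4 the signals that stood apart were 16.8 in Batf2 and 817 in Ciart. On lsPERK tunicamycin replicate 1 the signals that stood apart were 295 in Hmox1 and 216 in Myc. On lsPERK tunicamycin replicate 2 the signal that stood apart was 93.2 in Klf1. On lsPERK tunicamycin replicate 3 the signals that stood apart were 3561 in Cebpa and 65.7 in Slc7a5. WT replicate 2 is the WT tunicamycin array with high Xist signal.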

How the results depend on the processing

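Most alternatives kept the count of 4269 genes within 1.5 times. The values as deposited gave 2662, a minimum of 2-fold 1051 and the Xist-high arrays alone 2077, and leaving out 1 array gave 3686 (without lsPERK tunicamycin replicate 1) to 4367 (without lsPERK control replicate 1). Under DMSO, where limma called 0 genes, 1 was called with the actin ratio and 1 with Xist class as a covariate, 19 in the Xist-low and 5 in the Xist-high arrays, and 0 to 1 when 1 array was left out. The 2401 genes of the treatment-dependent difference became 977 at a minimum of 2-fold, 1218 in the Xist-low and 689 in the Xist-high arrays, and 1941 to 2297 without 1 array. Fewer arrays enter the Xist classes, and for the other changes the cause was not tested. Eif2ak3 stood at −2.81 to −2.65 without 1 array and at −1.087 in its most variable probe set, where its lsPERK signal lay under the filter threshold and it was not called. In such probe sets Hspb8 and Dnaja2 turned positive (0.692 and 0.5783), and Casp9, Erp44, Paqr7 and Uap1 were not called. As deposited, Ergic3, Ppp1ca and Scap were not called either. Of 83 named genes with several kept probe sets, 29 had another set over 1.5-fold from the one used, and in 13 that set was not called (Casp9, Cpt2, Dnajb4, Eif2ak1, Eif2ak3, Eif2s2, Eif5, Ern1, Mthfd1, Nmrk1, Paqr7, Slc38a2 and Tfrc). Calls of named genes were lost for 22 of 164 in the Xist-high arrays, 13 of 167 in the values as deposited, 8 with median centring, 5 in the Xist-low arrays and 1 (Cyp7a1) with the replicate block.

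With the replicate number as a block 4256 genes were called. Whether the numbers pair the arrays could not be decided: deviations of same-numbered tunicamycin arrays correlated at −0.14, 0.42, 0.24 and 0.19, and those of DMSO arrays at 0.31, −0.20 and 0.32. Differently numbered arrays correlated at −0.42 to 0.42 under tunicamycin and −0.49 to 0.32 under DMSO. WT tunicamycin replicate 2 correlated at 0.42 with both lsPERK replicates 1 and 2, which share its high Xist signal. Every pair across genotypes within a treatment correlated positively where Xist class was alike and negatively where it was not. Same-numbered arrays of unlike class stood at −0.14 (tunicamycin replicate 1) and −0.20 (DMSO replicate 2). Differently numbered arrays of like class reached 0.42 under tunicamycin and 0.32 under DMSO. Pairing by number beyond Xist class was not tested. Signals under the filter threshold and signals near the brightest limit what fold an array can show.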
